A study of Rattus norvegicus with 9 samples.

Results

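Tph1 (ENSRNOG00000011672), Tph2 (ENSRNOG00000003880) and Qdpr (ENSRNOG00000003253) were followed through the cerebral cortex of aging rats, as 3 of the 29516 Ensembl gene identifiers counted. They were chosen from the measurements themselves. The study listed Tph1 and Qdpr as genes, and Tph2 as a transcript, that differed between 28 months and younger ages in these same libraries. Their differences from 28 months are therefore given as a description, and whether a test called them is not taken as support.

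The rats were male BN rats of the substrain BN/SsNOlaHSD, fed ad libitum and killed at 6, 12 or 28 months, with no treatment or genetic change in any group. Cortical RNA of 2 rats was pooled for each library, ribosomal RNA was removed, and 3 libraries were deposited per age from sequencing on the SOLiD system. Sample 2 of 6 months and sample 3 of 12 months were deposited with identical counts, so 8 libraries are independent. The age of that library is not settled by the labels, and it is called here the shared library. Each age comparison was made with the 3 files of each age as labelled and again without the shared library. Since each library is a pool of 2 rats, p-values measure the spread between pools. At 6 vs. 12 months as labelled, the shared library stands on both sides, so the groups are not independent. For every gene, the p-values, FDRs and intervals of that fit therefore do not measure this spread, and only the fit without the shared library can.

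Tryptophan hydroxylase carries out the first and rate-limiting step of serotonin synthesis, and it needs tetrahydrobiopterin as a cofactor. Tph1 encodes the form known from the pineal gland and from tissues outside the brain, and Tph2 the form of the serotonin neurons, whose cell bodies lie in the raphe nuclei of the brainstem and not in the cortex. Qdpr encodes dihydropteridine reductase, which returns the used cofactor to its active form, and which also serves the hydroxylases of phenylalanine and tyrosine.

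The stretch of Tph1 that the study amplified by quantitative PCR is shown because Tph1 is the member whose reads were concentrated in a single library. It has 67 bases, with the ends where the primers lie (21 and 20 bases) in capitals and 26 bases between them, and 55.2% of its bases are G or C. The PCR measurements were not used here.
Tph1 amplicon: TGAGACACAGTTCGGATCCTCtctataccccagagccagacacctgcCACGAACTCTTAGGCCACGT

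The 250 bases before the RefSeq start of each gene (assembly GRCr8) are shown to set the genes side by side, since their patterns across the libraries differed. All 3 members were matched by symbol. The window of Tph1 is chr1:106314629-106314878 on the minus strand, that of Tph2 chr7:52675640-52675889 on the minus strand, and that of Qdpr chr14:69882526-69882775 on the plus strand. The counts were made on an older assembly, so these positions belong to the sequences alone. Each is printed 5′ to 3′ on the strand of its gene, and capitals mark the letters CCAAT, the TATA box letters TATAAA and the GC box core GGGCGG, on either strand.
Tph1: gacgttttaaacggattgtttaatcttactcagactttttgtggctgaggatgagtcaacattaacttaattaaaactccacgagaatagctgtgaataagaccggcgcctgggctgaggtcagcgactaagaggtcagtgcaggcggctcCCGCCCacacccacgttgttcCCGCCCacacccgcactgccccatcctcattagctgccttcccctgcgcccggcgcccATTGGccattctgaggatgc
Tph2: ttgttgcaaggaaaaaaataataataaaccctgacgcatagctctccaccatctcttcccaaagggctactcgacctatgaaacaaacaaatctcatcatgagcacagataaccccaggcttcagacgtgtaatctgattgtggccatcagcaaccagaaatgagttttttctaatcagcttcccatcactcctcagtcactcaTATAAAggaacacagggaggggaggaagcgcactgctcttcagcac
Qdpr: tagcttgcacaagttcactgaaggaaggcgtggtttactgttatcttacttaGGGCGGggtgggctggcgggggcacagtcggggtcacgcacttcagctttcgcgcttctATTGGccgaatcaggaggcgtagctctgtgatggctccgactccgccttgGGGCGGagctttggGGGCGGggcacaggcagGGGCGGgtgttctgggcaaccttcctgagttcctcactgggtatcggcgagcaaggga

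The window of Qdpr was the richest of these in G and C, at 61.2%, that of Tph1 had 54.4% and that of Tph2 44.8%, beside a median of 51.2% over 33465 rat promoter windows of the same length. Qdpr carried GGGCGG 4 times, beginning 198, 89, 75 and 58 bases before the start. Tph1 carried it 2 times on the minus strand, at 99 and 78 bases, and Tph2 did not carry it. TATAAA was found in the window of Tph2 alone, 46 bases before the start. CCAAT was found on the minus strand at 20 bases in Tph1 and at 139 bases in Qdpr. The matches do not overlap one another. Of all windows, 30.5% held GGGCGG, 12.9% TATAAA and 34% CCAAT, so each of these matches is common. TGACGTCA, held by 1.59% of windows, and CANNTG, held by 65.5%, were in none of the 3 windows.

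Between 6513376 and 9196951 reads were counted on genes per library, of which a single identifier took 44.0 to 52.4%, leaving 3431328 to 4891332 for all others. Levels are given as raw reads and as normalized counts, in CPM, the field's unit of reads relative to all gene reads of a library, after scaling with TMM over the 8 libraries. At this depth 3 reads correspond to 0.327 to 0.455 CPM. The neuronal marker Gria2, a glutamate receptor subunit, was present in all 8 libraries, at 762 to 961 CPM. Levels are compared between libraries for 1 gene at a time and not between genes, because no gene lengths were used.

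Tph1 was almost confined to the shared library. Of the 166 reads counted on it in the 8 libraries, 147 lay there, which is 88.5%, and the other 7 libraries held 19 in all. Both 6 months sample 1 and 6 months sample 3 had 2 reads (0.218 and 0.229 CPM). Among the 12-month-old libraries, sample 1 had 1 read (0.143 CPM) and sample 2 had 8 reads (1.10 CPM). The 28-month-old libraries had 0, 2 and 4 reads in samples 1, 2 and 3, with a mean of 0.294 ± 0.304 CPM (SD, n = 3). For the 0 of sample 1 the 95% exact Poisson interval reaches up to 3.69 reads, or 0.456 CPM. In the shared library the normalized count was 20.5 CPM, with a 95% exact Poisson interval of 17.3 to 24.1 CPM that covers counting error only. The highest of the other libraries was 12 months sample 2, whose 8 reads have an interval of 3.45 to 15.8 reads. The shared library stood 18.7-fold above it. With the shared library set aside, the libraries of the 3 ages overlapped: 0.218 to 0.229 CPM at 6 months, 0.143 to 1.10 CPM at 12 months and 0 to 0.607 CPM at 28 months.

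**Figure D1:**
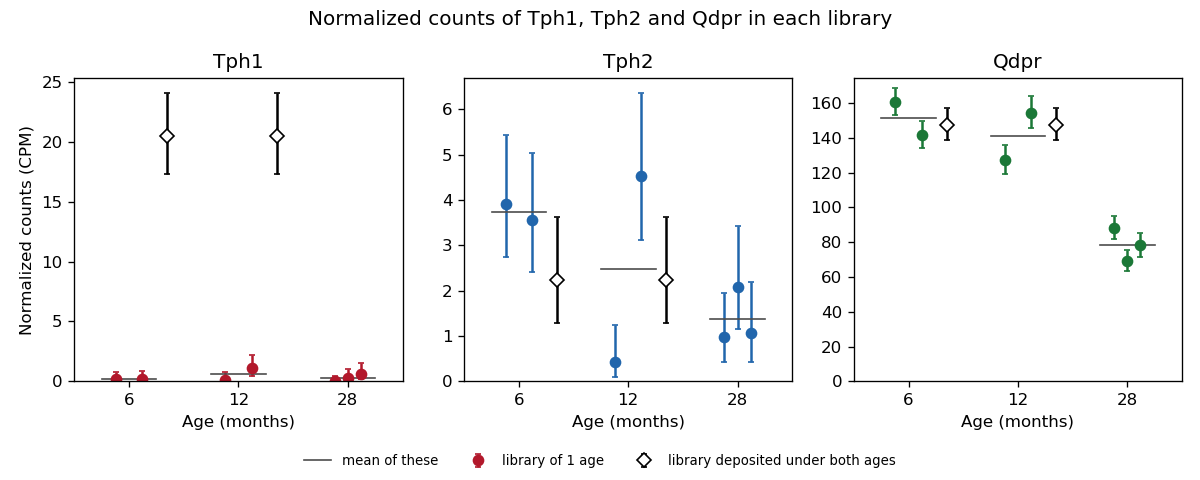
Normalized counts (CPM, linear vertical axes) of Tph1, Tph2 and Qdpr against age in months. Filled points are libraries of 1 age, open diamonds the shared library drawn at both of its labelled ages, bars the 95% exact Poisson interval of the reads, and horizontal lines the mean of the filled points of an age. Tph1 reaches 20.5 CPM in the shared library and at most 1.10 CPM elsewhere, Tph2 varies from 0.428 to 4.54 CPM, and Qdpr at 28 months lies between 69.4 and 88.4 CPM, below every younger library.

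Among the identifiers with at least 50 reads in the shared library, only Tph1 set it apart in this way. Identifiers with fewer reads there were not ranked, and they can be concentrated there too. ENSRNOG00000019296 was at 2.79 CPM there and at most 0.607 CPM in the other 7 libraries. Among the 7679 identifiers with at least 50 reads in the shared library, Tph1 had the highest ratio of its CPM there to the highest CPM among the other 7, at 17.6-fold with 0.5 reads added to each. The next was ENSRNOG00000033110, with 159 reads there and at most 66 elsewhere, at 2.21-fold. Of the ranked identifiers, only 7 passed 2-fold and Tph1 alone passed 5-fold. Tph1 met the minimum of 50 reads through the shared library alone, with at most 8 reads elsewhere. It was also chosen for differences that rested on that library, so its place in this ranking is a description and no support. Qdpr ranked 2634 in this order, at 0.919-fold, and Tph2, with 16 reads in the shared library, was too low to be ranked. Etv1, a transcription factor of the ETS family, ranked 44 at 1.62-fold.

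**Figure D2:**
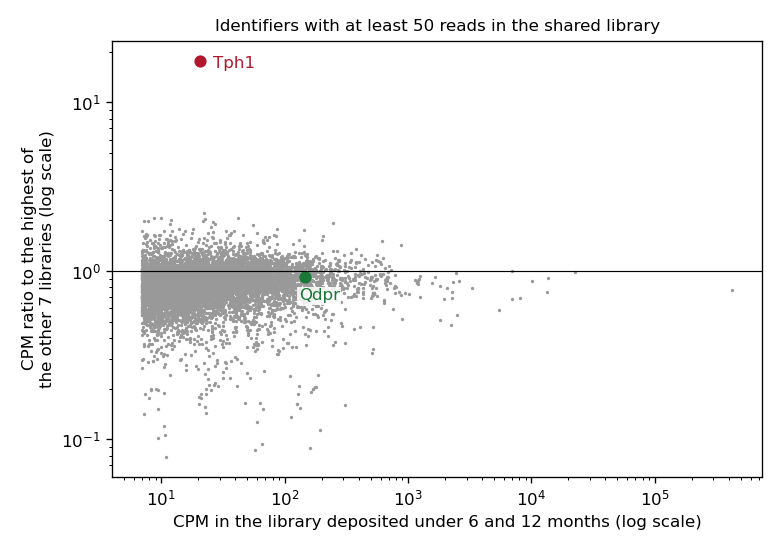
Ratio of the normalized count in the shared library to the highest among the other 7 libraries (vertical, log scale) against the normalized count in the shared library in CPM (horizontal, log scale) for 7679 identifiers with at least 50 reads there. Each grey point is an identifier and the line marks a ratio of 1. Tph1 stands alone at 17.6, the next identifier is at 2.21, and Qdpr lies at 0.919 within the bulk.

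Genes of other tissues that the dissected sample could hold were read beside Tph1. Of 6 genes listed for the choroid plexus, liver or blood, 5 could be paired with an identifier, and they summed to 82.2 CPM in the shared library, to 25.2 to 32.1 at 6 months, to 50.2 to 57.2 at 12 months and to 20.9 to 31.0 at 28 months. The haemoglobin gene LOC689064 alone gave 64.8 CPM of the sum in the shared library. In 4 of the 5 the shared library was the highest. The share of all identifiers highest there was not counted, so nothing is read from this. Lrp2, an endocytic receptor known as megalin, stood there 2.17-fold above the next library, with 32 reads. LOC689064 stood 1.28-fold above the next, Gc, which encodes the vitamin D binding protein of plasma, 1.16-fold, and Alb, serum albumin, 1.02-fold. Gc had 16 reads there and 14 in 12 months sample 2, and Alb had 51 reads in each of them. Apob, the apolipoprotein of liver-made particles, was at 0.628 of the highest other library. No defining marker among these 5 was at 0 in the shared library, while Gc was at 0 in both 6-month-old libraries of 1 age and in 28 months sample 3, and Apob in 28 months sample 3. Of 6 pineal genes only Tph1 could be paired, so no second pineal marker was measured here. The part of such tissue in the Tph1 reads was not tested.

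As labelled, the shared library counts for both 6 and 12 months. The log2 fold change (log2FC, older against younger) of Tph1 was -4.53 ± 1.67 (SE, 3 files per age) at 6 vs. 28 months and -4.63 ± 1.43 at 12 vs. 28 months. Without the shared library Tph1 had under 5 reads in every library of 6 and 28 months, so it was left out of that comparison by the minimum of 5 reads in at least 1 library, and its log2FC at 12 vs. 28 months was -1.11 ± 1.12 (SE, 2 against 3 libraries). The large differences of Tph1 from 28 months thus rested on 1 library. The study had itself named both files of the shared library as probably skewing its Tph1 result. It regarded that result as questionable because Tph1 varied so much among samples. It also reported that, sample by sample, quantitative PCR of Tph1 matched the sequencing strongly. Those PCR values were not analysed here. At 6 vs. 12 months, where the identical file stands on both sides, the log2FC was 0.11 ± 1.502 (SE) with a 95% interval of -3.29 to 3.50 (FDR 0.997, edgeR quasi-likelihood test over 16113 genes). Without it the log2FC was 1.42 ± 1.15 (interval -1.18 to 4.02, FDR 0.635), so neither a rise nor a fall could be shown from 4 against 9 reads.

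Tph2 was low in every library and was detected in all of them, with 149 reads in total. The 6-month-old samples 1 and 3 had 36 and 31 reads (3.92 and 3.55 CPM). The 12-month-old samples 1 and 2 lay far apart, at 3 and 33 reads (0.428 and 4.54 CPM), a 10.6-fold range that spans all the other libraries. At 28 months, samples 1, 2 and 3 had 8, 15 and 7 reads, which are 0.988, 2.07 and 1.06 CPM with a mean of 1.37 ± 0.606 CPM (SD, n = 3). The shared library had 16 reads (2.23 CPM, 95% interval 1.28 to 3.63), 10.7% of all Tph2 reads and 0.492 of the highest other library. The library with most of the Tph1 reads was thus not the highest for Tph2.

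All 28-month-old libraries lay below both 6-month-old samples 1 and 3 for Tph2, and they overlapped with the 12-month-old range. Of the 16374 identifiers with at least 5 reads in at least 1 library, 1781 had their 3 libraries of 28 months below those 2 libraries, which is 10.9%, and nothing is read from the place of Tph2 among them. Its log2FC was -1.24 ± 0.40 (SE) at 6 vs. 28 months and -1.44 ± 0.40 without the shared library. At 12 vs. 28 months it was -0.80 ± 0.63, and -0.85 ± 0.69 without the shared library. The value at 12 vs. 28 months turned on 12 months sample 2: without that library the log2FC was 0.04. At 6 vs. 12 months the log2FC of Tph2 was -0.43 ± 0.59 (95% interval -1.77 to 0.90, FDR 0.997), and -0.58 ± 0.67 without the shared library (interval -2.11 to 0.94, FDR 0.752, edgeR quasi-likelihood test). Both intervals hold falls and rises, so a change of either kind could not be shown at this depth.

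**Figure D3:**
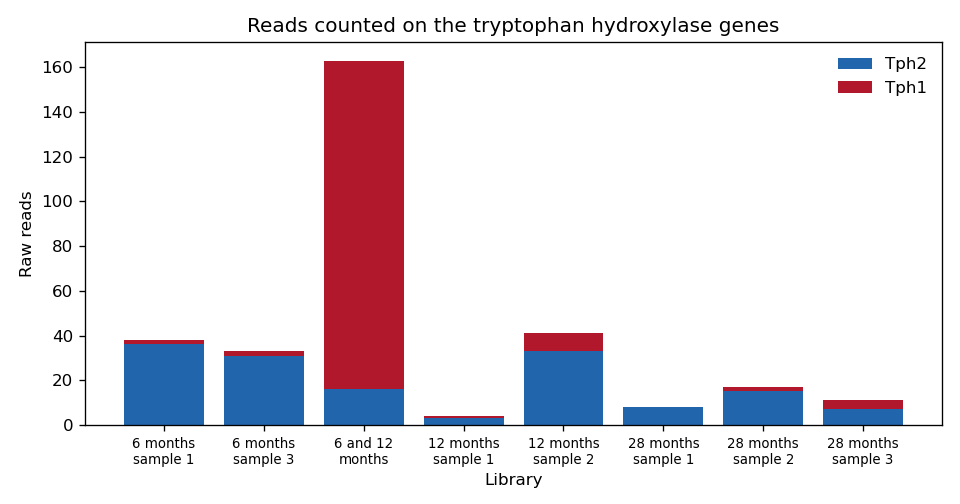
Raw reads counted on Tph2 (lower, blue) and Tph1 (upper, red) in each of the 8 independent libraries, with the shared library labelled 6 and 12 months. The shared library has 147 Tph1 and 16 Tph2 reads, while in the other libraries Tph2 has most of the reads.

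Both enzymes catalyse the same reaction, so their reads were also taken as a share. Tph1 made up 90.2% of the 163 reads on the 2 genes in the shared library (95% exact binomial interval 84.5 to 94.3%). In 6 months samples 1 and 3 its share was 5.26% of 38 reads (0.644 to 17.7%) and 6.06% of 33 reads (0.743 to 20.2%). In 12 months sample 2 it was 19.5% of 41 reads (8.82 to 34.9%). The interval of the shared library overlaps with none of these. The remaining libraries had few reads on either gene: the share was 25% of 4 reads in 12 months sample 1 (0.631 to 80.6%), and 0% of 8 reads (up to 36.9%), 11.8% of 17 (1.46 to 36.4%) and 36.4% of 11 (10.9 to 69.2%) in samples 1, 2 and 3 of 28 months. The intervals cover counting error only. Tph1 and Tph2 are related genes, and reads from stretches that are near-identical, or from overlapping genes on either strand, may have been split or lost, since the strand setting of the counting is not given in the sources used here.

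Of 4 genes listed for raphe serotonin neurons, Tph2 was the only one that could be paired with an identifier. Trh, the hypothalamic peptide thyrotropin-releasing hormone, was also highest in 12 months sample 2, at 5.64 CPM, beside 1.43 CPM in 12 months sample 1 and 0.247 to 0.829 CPM at 28 months. Whether other brain regions took part in the Tph2 reads was not tested.

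Qdpr was the best measured of the 3 genes, with 502 to 1476 reads per library. It was lower at 28 months than in every younger library. The 6-month-old samples 1 and 3 had 1476 and 1239 reads (161 and 142 CPM), and the 12-month-old samples 1 and 2 had 895 and 1124 reads (128 and 155 CPM). The shared library, with 1058 reads, had 148 CPM and lay inside the range of the 6-month-old and of the 12-month-old libraries. At 28 months, samples 1, 2 and 3 had 716, 502 and 515 reads, which are 88.4, 69.4 and 78.1 CPM. The mean at 28 months was 78.7 ± 9.52 CPM (SD, n = 3) and that of the 5 younger libraries 146 ± 12.7 CPM (SD, n = 5), so the older level was 53.7% of the younger one.

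The lowest younger library, 12 months sample 1, stood 1.44-fold above the highest 28-month-old library, sample 1. The 5 younger libraries spanned 1.26-fold and the 3 older ones 1.27-fold, so the gap between the age groups was wider than the span within either. Of 16374 identifiers, 208 had all 3 libraries of 28 months below all 5 younger ones (1.27%), and among the 5580 identifiers with a mean of at least 100 reads 43 did (0.771%). Qdpr was chosen for its level at 28 months, so nothing is read from its place among them. Within the younger libraries the counting intervals of 6 months sample 1 (153 to 169 CPM) and 12 months sample 1 (119 to 136 CPM) did not overlap, so these pools differed by more than counting error.

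The log2FC of Qdpr was -0.93 ± 0.16 (SE) at 6 vs. 28 months and -0.86 ± 0.16 at 12 vs. 28 months. Without the shared library the values were -0.95 ± 0.17 and -0.83 ± 0.17. At 6 vs. 12 months the log2FC was -0.07 ± 0.15 (95% interval -0.40 to 0.27, FDR 0.997) and -0.11 ± 0.16 without the shared library (interval -0.47 to 0.25, FDR 0.812, edgeR quasi-likelihood test). These intervals belong to 6 vs. 12 months and do not measure the uncertainty of the differences from 28 months, for which Qdpr was chosen. In bulk cortex, fewer cells of a type that uses Qdpr and less Qdpr RNA per cell cannot be told apart, and the same holds for Tph1 and Tph2.

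**Figure D4:**
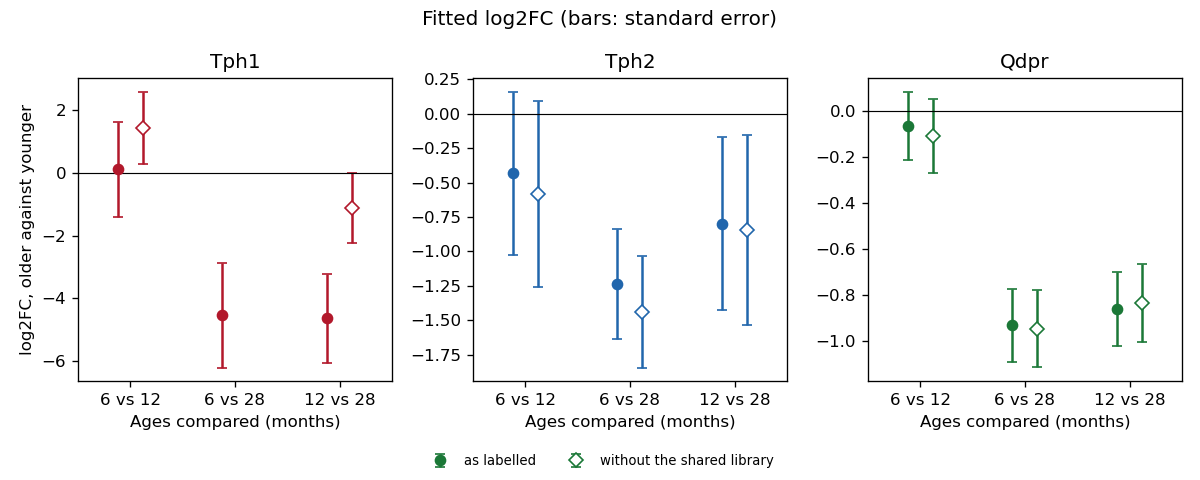
Log2FC of Tph1, Tph2 and Qdpr (older against younger; vertical scales differ) for 6 vs. 12, 6 vs. 28 and 12 vs. 28 months, with bars of 1 SE. Filled circles are fits as labelled and open diamonds fits without the shared library, in which Tph1 could not be fitted at 6 vs. 28 months. Leaving the library out moves Tph1 at 12 vs. 28 months from -4.63 to -1.11 and Qdpr at the same ages from -0.86 to -0.83.

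Glial genes were read beside Qdpr. Tf, listed for oligodendrocytes, was at 84.8 to 127 CPM at 28 months, 207 to 209 at 12 months, 128 to 160 at 6 months and 197 in the shared library. The study's table pairs that identifier with the symbol Tf but with the product name of another gene, so its identity is uncertain, and the other 5 oligodendrocyte markers could not be paired. Gfap, the intermediate filament of astrocytes, was at 52.4 to 77.0 CPM at 28 months, 72.4 to 89.1 at 6 months, 145 to 155 at 12 months and 151 in the shared library. Gria2 was at 934 to 949 CPM at 28 months and 861 to 893 at 6 months, beside 762 to 961 at 12 months and 782 in the shared library. Qdpr was about as high at 6 as at 12 months, whereas Gfap and the microglial genes Aif1 and Cd74 were higher at 12 months. Aif1 was at 5.16 to 5.66 CPM at 6 months, 8.80 to 8.98 at 12 months and 4.89 in the shared library. At 28 months it was lower, at 2.49 to 3.46 CPM. Cd74 was at 5.04 to 5.12 CPM at 6 months, 28.4 to 35.9 at 12 months and 23.3 in the shared library. At 28 months Cd74 was above its 6-month level, at 6.98 to 12.9 CPM, so the microglial genes differed in pattern. These markers were picked by the study from these libraries, and the part of a shift in cell types in the Qdpr difference was not tested.

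The patterns of the members were also set against every other gene, as the Pearson correlation r of log2 normalized counts over the 8 libraries. These points share libraries and depth, and r is a description. The members were not much alike: r was 0.49 for Tph2 and Qdpr, 0.336 for Tph1 and Qdpr and 0.243 for Tph1 and Tph2. None of the 5 identifiers most like each member could be paired with a gene name. The nearest to Tph1 was ENSRNOG00000010593 (r = 0.989, and 0.913 over the 7 libraries without the shared one), with 39.1 CPM in the shared library and 23.8 to 27.8 CPM in the others. The nearest to Tph2 was ENSRNOG00000006331 (r = 0.974), which ranged from 6.42 to 13.6 CPM. The nearest to Qdpr was ENSRNOG00000001060 (r = 0.967), at 2.63 to 3.04 CPM at 28 months and 3.67 to 4.19 CPM in the younger libraries. Among genes that could be named, the first were Lrp2 for Tph1 (place 371, r = 0.756), the glycine receptor subunit Glrb for Tph2 (place 76, r = 0.841) and Aif1, a calcium-binding protein of microglia, for Qdpr (place 57, r = 0.832). Aif1 was at 2.49 to 3.46 CPM at 28 months and 4.89 to 8.98 CPM in the younger libraries. Glrb and these first named genes were chosen after their values were seen.

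By the quasi-likelihood test none of the 3 members passed an FDR of 0.05 in any age comparison as labelled. The test called 0 of 16113 genes at 6 vs. 12 months (0%), 18 of 16172 at 6 vs. 28 months (0.111%) and 9 of 15992 at 12 vs. 28 months (0.0563%), beside 485, 392 and 701 genes at an unadjusted p under 0.05. Without the shared library it called 191 (1.2%), 33 (0.206%) and 19 (0.12%) genes, again with 0 members, of which only Tph2 and Qdpr were tested at 6 vs. 28 months. The contrasts with 28 months are those the members were chosen by, and nothing is read from these counts.

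The study used the exact test of edgeR with tagwise dispersion. Run on all files as labelled, it called 82 genes at 6 vs. 12 months (0.509%) with 0 members, 39 at 6 vs. 28 months (0.241%) with 1 member, Tph1, and 50 at 12 vs. 28 months (0.313%) with 1 member, again Tph1. Without the shared library it called 462 (2.89%), 138 (0.86%) and 128 (0.808%) genes, with 0 members in the first and Qdpr as the 1 member in each of the others. The Wald test of DESeq2 called 21 (0.13%), 28 (0.173%) and 35 (0.219%) genes in the same order, with Qdpr as the 1 member in both contrasts with 28 months, and 246 (1.54%), 70 (0.436%) and 82 (0.518%) without the shared library, with the same members. At the minimum of 5 reads, only the exact test of these 3 tests called Tph1, and only with the shared library present. Qdpr was called by DESeq2 with and without that library and by the exact test without it. The exact test and DESeq2 without that library were added after the data were seen. Since the members were chosen by the contrasts with 28 months, the calls there describe the tests and are no support for a change. No member was called at 6 vs. 12 months by any of the 3 tests. The study listed Qdpr, as well as Tph1, in both contrasts with 28 months. With all files as labelled, the exact test here gave Qdpr an FDR of 0.0699 at 6 vs. 28 months. At 12 vs. 28 months the FDR was 0.0599, so the study's listing of Qdpr was not repeated. The reason was not tested.

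**Figure D5:**
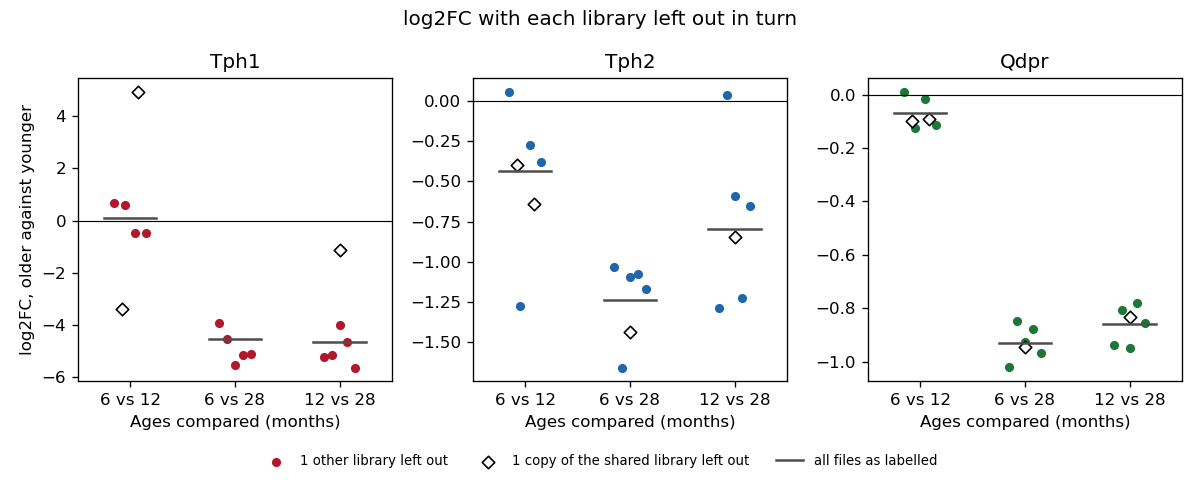
Log2FC of each member (older against younger; vertical scales differ) when the fit as labelled was repeated without 1 file at a time. Filled points leave out a library of 1 age, open diamonds a copy of the shared library, and the horizontal line is the fit with all files. For Tph1 the open diamonds stand apart (-3.40 and 4.92 at 6 vs. 12 months, -1.11 at 12 vs. 28 months), and Qdpr stays between -1.02 and -0.78 in both contrasts with 28 months.

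With each file left out in turn, the log2FC of Tph1 ran from -5.53 to -3.91 at 6 vs. 28 months, where the copy labelled 6 months could not be left out because no library then reached 5 reads. At 12 vs. 28 months it ran from -5.62 to -1.11, the last without the shared library. The values of Tph2 ran from -1.66 to -1.03 and from -1.29 to 0.04, and those of Qdpr from -1.02 to -0.85 and from -0.95 to -0.78. Of the 3 genes, Qdpr thus kept its value within the narrowest range.

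The rest of the pathway could be followed only as far as identifiers could be paired with names. Of 10 genes listed for tetrahydrobiopterin synthesis and recycling, Qdpr alone was paired, and of 8 tetrahydrobiopterin-dependent enzymes Tph1 and Tph2 were. No gene of 8 for serotonin handling and none of 14 serotonin receptors was paired. Those genes were not analysed here.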

How the data were processed

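Cortical RNA of rats aged 6, 12 and 28 months was measured in 9 files (8 independent libraries). Per the labels and the study's methods, the authors mapped SOLiD reads with Bowtie to the Ensembl rat genome (assembly rn4) and deposited raw counts per gene made with HTSeq, not normalized; the versions are not given in the sources used here. Reads on no gene, 47.5 to 60.0% of mapped reads, were left out of library sizes. Counts on genes were 6513376 to 9196951 per library, so a gene with few reads is known only within its Poisson interval.

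From these counts, each pair of ages was fitted on its own in edgeR 4.0.16 (R 4.3.3) with TMM scaling and the quasi-likelihood test, keeping genes that reached 5 reads in any library compared, at a Benjamini-Hochberg FDR of 0.05, as labelled and without the shared library. SE is the log2FC divided by the root of F. Alternatives were the edgeR exact test (prior degrees of freedom 28, proportion 0.5, grid length 500), DESeq2 1.42.0, RLE scaling, other read minimums, 1 fit over 9 files, leaving out the most abundant identifier, and each file left out in turn. The exact test and DESeq2 without the shared library were added after seeing the data. The scripts were tested on simulated data.

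The members and lists were chosen with earlier results of these data known. Named are the members, listed genes whose identifier the study's supplementary tables pair with a symbol, for each member the identifiers with the highest r (prior count of 2), and for Tph1 the identifiers ranked by their ratio in the shared library. The RefSeq table at hand lists no Ensembl identifiers, so it paired none of them with a name, and it served for the promoter windows alone. One listed neuronal marker, and the sum of the list that holds it, are not reported here.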

Additional observations from a re-analysis of the deposited data

How the results depend on the processing

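Over the 3 members and 3 age comparisons, 116 alternative values kept their direction and, where an FDR was given, their side of 0.05. Of the others, 11 newly passed an FDR of 0.05, 6 reversed and 1 moved. In the contrasts with 28 months, leaving out a copy of the shared library repeats the fit without that library, and both are counted. The genes called at 6 vs. 12 months (0 by the quasi-likelihood test) were 82 by the exact test, 21 by DESeq2, 191 without the shared library, 462 and 246 by these 2 tests without it, and 0 to 109 with 1 file left out. At 6 vs. 28 months (18) they were 39, 28, 33, 138, 70 and 0 to 33 in that order, and 1 in 1 fit over 9 files. At 12 vs. 28 months (9) they were 50, 35, 19, 128, 82 and 0 to 19, with 1 in 1 fit over 9 files, 42 with a minimum of 1 read and 5 with 10 reads in every library, a minimum that removes Tph1 and Tph2. Tph1 newly passed the FDR at 6 vs. 28 months by the exact test (log2FC -4.53, FDR 0.00332; 0.00332 to 1 over its alternatives) and at 12 vs. 28 months by the exact test (-4.60, FDR 0.000296) and with a minimum of 1 read (-4.63, FDR 0.0462), and moved to -1.10 there by DESeq2 without the shared library. Qdpr newly passed it at 6 vs. 28 months with a minimum of 1 read (-0.93, FDR 0.016), by DESeq2 (-0.93, and -0.94 without the shared library) and by the exact test without it (-0.95), and likewise at 12 vs. 28 months (-0.86, FDR 0.0303; -0.85; -0.83; -0.83). With 1 file left out, the log2FC at 6 vs. 12 months ran from -3.40 to 4.92 for Tph1, reversing at -3.40, -0.49 and -0.48 without 12 months sample 3, 6 months sample 1 and 6 months sample 3, from -1.28 to 0.055 for Tph2 and from -0.13 to 0.0093 for Qdpr, the last 2 reversing without 12 months sample 1. Tph2 at 12 vs. 28 months reversed to 0.036 without 12 months sample 2, with a range of -1.29 to 0.036. At 6 vs. 28 months the ranges were -5.53 to -3.91, -1.66 to -1.03 and -1.02 to -0.85 for Tph1, Tph2 and Qdpr, and at 12 vs. 28 months -5.62 to -1.11 for Tph1 and -0.95 to -0.78 for Qdpr. The cause of these shifts was not tested, apart from the 147 Tph1 reads of the shared library. No paired analysis was possible because each rat was killed at a single age, so pools of different ages hold different rats. As labelled, DESeq2 gave no adjusted p for Tph1 at 6 vs. 12 and 6 vs. 28 months. The same held for Tph2 at 6 vs. 28 and 12 vs. 28 months. Without the shared library it gave none for Tph1 at 6 vs. 12 and 12 vs. 28 months, nor for Tph2 at 12 vs. 28 months. The read depth limits Tph1 and Tph2 most. The members were chosen by the contrasts with 28 months, so the FDRs there show only how the settings differ.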
